A study of Mus musculus with 88 samples.

Results

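The genes of cholesterol and fatty acid synthesis were followed in 4 mouse tumours, grown as transplants and exposed to carbon ions or to gamma rays. The set held 34 genes, named by pathway but chosen with earlier results of these data known. It comprised 18 enzymes of the route from acetyl units to cholesterol, 10 genes of fatty acid synthesis and desaturation, and 6 regulators and transport genes. Of these, 32 had a probe of their own among the 18069 genes on the array and 31 were bright enough to be tested, among 13465 genes tested in all. Acat2 and Stard4 were not analysed here, as no probe was matched to them alone, and Insig1, which retains the sterol sensor in the endoplasmic reticulum, was too dim, at 0.26 to 0.501 on the untreated arrays of the carbon arm.

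The tumours grew in the hind legs of C3H mice. NR-S1 and SCCVII are labelled as squamous cell carcinomas that arose spontaneously, NFSa as a spontaneous fibrosarcoma and #8520 as a radiation-induced fibrosarcoma. Each was measured untreated and at 6 h, day 1 and day 3 after a single exposure to carbon ions at 30 Gy, or to gamma rays at 30 or 50 Gy as the reference beam. The carbon arm (32 arrays) and the gamma arm (56 arrays) each had their own untreated tumours. All 44 combinations of tumour, beam, dose and time were measured on 2 single-colour arrays, 88 in all. Nothing in the labels ties the paired arrays to separate animals. The p-values here therefore measure only the spread between these arrays, which may be technical. Tumours were measured whole, so fewer cells of a type and less RNA per cell cannot be told apart.

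Cells build cholesterol from acetyl-CoA through mevalonate, farnesyl pyrophosphate, squalene and lanosterol, and long-chain fatty acids from malonyl-CoA, with later elongation and desaturation. The enzymes of both routes are controlled by the SREBP transcription factors, of which SREBP-2 (Srebf2) acts mainly on sterol genes and SREBP-1 (Srebf1) mainly on fatty acid genes. SCAP carries the precursors out of the endoplasmic reticulum when sterol is low, and the INSIG proteins hold them back when sterol is plentiful. Dividing cells use both products for new membrane.

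The values are intensities on the deposited scale, on which each array had a median between 1.02 and 1.07. Over all tested genes, the paired arrays had correlations between 0.990 and 0.998. On 8 of the 88 arrays, those of SCCVII and #8520 at day 1 and day 3 after 50 Gy, the low end was raised: their 1st percentiles lay between 0.297 and 0.378, and those of the other 80 arrays between 0.0128 and 0.134. Some results at 50 Gy are therefore also given without those arrays. The keratin gene Krt5, which marks basal keratinocytes, was at 206 to 527 in untreated NR-S1 and at 0.3 to 0.351 in untreated SCCVII, so this marker was near the lowest intensities in SCCVII despite its carcinoma label.

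After carbon ions, sterol synthesis genes fell at all 3 times and were lowest at day 3. A gene was called changed when its log2 difference from the untreated tumours of the same arm, averaged over the 4 tumours, had an adjusted p below 0.05 in limma's moderated test (two-sided, Benjamini-Hochberg over all genes). At 6 h, 25 of the 31 genes were lower and 2 were higher, where 19.5% of all genes were lower and 21% higher. At day 1, 26 were lower and 2 higher (all genes, 16.6% and 25.5%), and at day 3, 28 were lower and 1 higher (all genes, 41.8% and 26.4%). Genes of all kinds moved, so the larger changes were counted as well: 21 of 31 were lower by at least 1.5-fold at day 3, against 6.88% of all genes. At 6 h this held for 15 against 1.29%, and at day 1 for 17 against 0.827%. The median log2 change of the 17 tested sterol enzymes was -0.67, -0.75 and -1.40 at the 3 times, that of the 10 fatty acid genes -0.57, -0.47 and -1.03, and that of all genes at day 3 was -0.08.

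**Figure D1:**
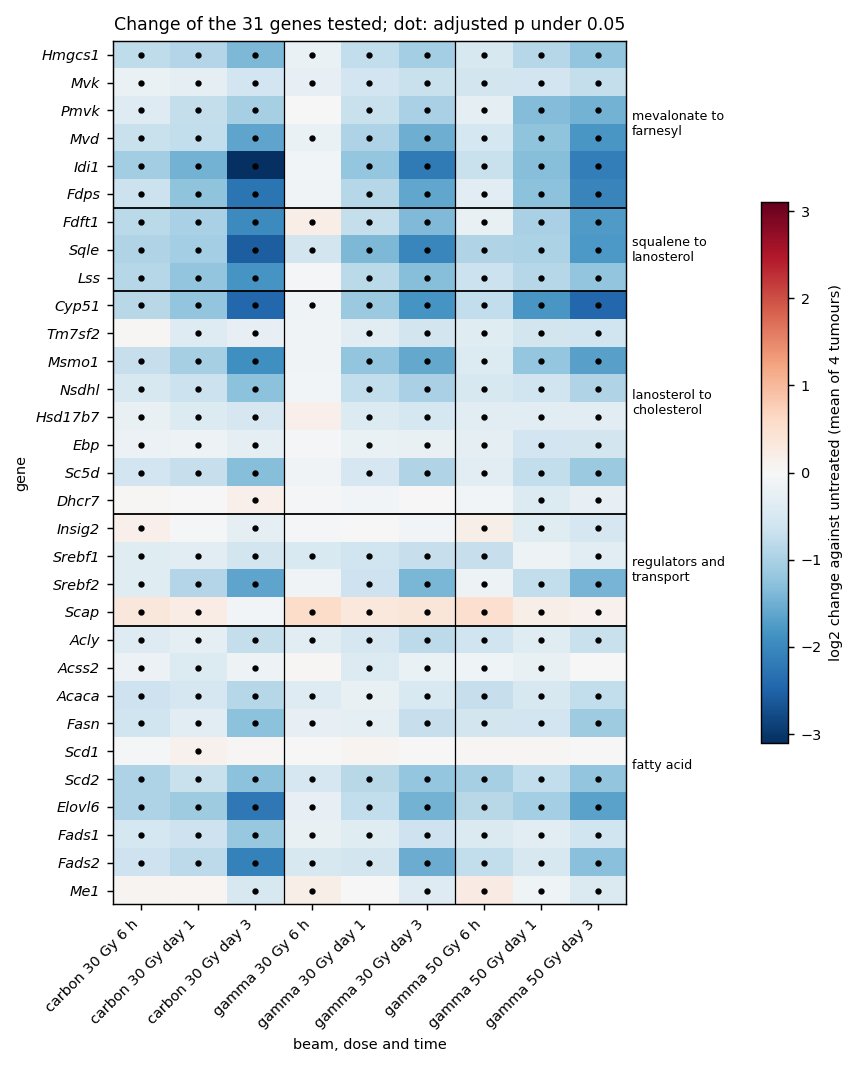
Heat map of the log2 change against untreated tumours (mean of 4 tumours) for the 31 tested genes in rows, ordered by role, and the 9 combinations of beam, dose and time in columns; a dot marks an adjusted p below 0.05. Idi1 at day 3 after carbon ions, at -3.09, is the darkest cell, the column of 30 Gy gamma rays at 6 h is the palest, and Scap and Scd1 lack the blue of their neighbours.

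All 6 enzymes from mevalonate to farnesyl pyrophosphate were lower at each time after carbon ions, with a median of -1.52 at day 3. Idi1 interconverts the isoprenyl pyrophosphates. Its intensity on the 8 untreated arrays of the carbon arm ran from 7.28 through a median of 12.4 to 19.3. At 6 h it ran from 3.01 through 5.12 to 14, at day 1 from 1.82 through 3.27 to 21.9, and at day 3 from 0.588 through 1.27 to 5.15. Every day 3 array was below every untreated array, whereas the ranges overlapped at 6 h through NR-S1 and SCCVII and at day 1 through NR-S1. The day 3 change was -3.09 (SE 0.0668, adjusted p = 2.2e-40, limma), or 8.49-fold lower. Fdps, which makes farnesyl pyrophosphate, was already separate at 6 h: 64.8, 81.3 and 97.7 (lowest, median, highest) against 102, 125 and 176 untreated. At day 3 it lay at 15.8, 26.3 and 45.8, a change of -2.27 (SE 0.0571, adjusted p = 1.3e-37, limma). Mvd, the decarboxylase that ends the mevalonate steps, fell from 3.83, 5.12 and 7.77 untreated to 1.31, 1.72 and 2.61 at day 3, without overlap. Hmgcs1, the synthase that makes HMG-CoA, changed by -1.40 (SE 0.0512) and Pmvk, a kinase, by -1.03. Mvk, the kinase acting on mevalonate itself, had the smallest change of the 6, at -0.60.

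The 3 enzymes between farnesyl pyrophosphate and lanosterol were lower at every time after carbon ions, with medians of -0.89, -1.06 and -1.97. Sqle, the epoxidase that is a slow step of the route, had untreated intensities of 1.73, 3.98 and 4.48 (lowest, median, highest). They were 1.32, 1.65 and 2.79 at 6 h, 0.731, 1.67 and 2.94 at day 1 and 0.388, 0.566 and 0.932 at day 3. The day 3 arrays lay below all untreated arrays, and the change was -2.55 (SE 0.0574, adjusted p = 1.1e-39, limma). Fdft1, which makes squalene, was at 7.83, 8.64 and 13.6 untreated and at 4.46, 5.26 and 6.14 by 6 h. Its arrays did not overlap with the untreated arrays at any of the 3 times, and at day 3 it had changed by -1.97 (SE 0.0648, adjusted p = 2.1e-32, limma). Lss, which closes the ring system to form lanosterol, changed by -1.83 at day 3.

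Of the 8 enzymes from lanosterol to cholesterol, 7 were lower and 1 higher at day 3 after carbon ions, and they varied most among themselves. Cyp51, the lanosterol demethylase, ran from 27.8 through 32.2 to 52.2 untreated and from 3.58 through 6.81 to 10.4 at day 3. It fell in all 4 tumours with no overlap of arrays, by 2.42 on the log2 scale (SE 0.0513, adjusted p = 7.9e-41, limma). Msmo1 (-1.90) and Nsdhl (-1.27), which act after Cyp51 in removing methyl groups, and Sc5d (-1.32), a desaturase, also fell. Hsd17b7 (-0.51), Ebp (-0.27) and the reductase Tm7sf2 (-0.26) fell by less. Dhcr7, the reductase of the last step, lay at 3.66, 4.13 and 5.02 untreated and at 3.7, 4.46 and 6.66 at day 3. The ranges overlapped, with the day 3 range reaching higher. The difference of 0.15 (SE 0.0411, adjusted p = 0.00086, limma) turned to -0.054 when the untreated arrays of both arms served as the reference.

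Among the 4 tested regulators, Srebf2 moved with the enzymes. Its intensities were 3.59, 6.09 and 7.46 untreated, 2.2, 4.91 and 6.11 at 6 h, 1.59, 3.09 and 5.75 at day 1, and 0.884, 1.99 and 3.12 at day 3. Only the day 3 arrays were all below the untreated ones, with a change of -1.64 (SE 0.0699, adjusted p = 2.2e-27, limma). Srebf1 was dim and changed by -0.37, -0.36 and -0.56 at the 3 times. Scap, the escort of both factors, went the other way early: it was at 29.7, 38.6 and 59.1 untreated and at 35.4, 51.3 and 73.8 at 6 h, a change of 0.35 (SE 0.0547, adjusted p = 4.8e-07, limma) with the same sign in all 4 tumours. It was also higher at day 1 (0.22), and at day 3 it was at -0.08 (adjusted p = 0.21, limma). Insig2 changed by 0.16 at 6 h and by -0.29 at day 3, both past the threshold.

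Of the 10 fatty acid genes, 9 were lower at day 3 after carbon ions. Elovl6 lengthens palmitate. It was at 25.1, 38.1 and 66.6 untreated, 12.4, 21.3 and 32.4 at 6 h, 12.4, 19.5 and 27.3 at day 1, and 4.96, 8.6 and 14.4 at day 3. Its change of -2.22 (SE 0.0481, adjusted p = 2.2e-40, limma) left no overlap between the day 3 and the untreated arrays. Fads2, the desaturase that starts polyunsaturated fatty acid synthesis, changed by -2.09, with a day 3 range of 0.351 to 2.5 that reached into the untreated range of 1.07 to 4.46. Fasn, the fatty acid synthase, changed by -1.27 and Fads1, the second desaturase, by -1.18. Acly and Acaca, which supply acetyl-CoA and malonyl-CoA, changed by -0.73 and -0.88. For Acly and Fads1, 1 array was missing in some groups and the fit used the other.

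The stearoyl-CoA desaturases Scd1 and Scd2 parted. Scd2 fell from 30.6, 43.9 and 50.4 untreated to 12.7, 23.4 and 31.6 at 6 h, a change of -0.97 that reached -1.27 at day 3. Scd1 stayed at 3.15, 4.24 and 5.09 untreated against 2.91, 4.55 and 5.25 at day 3, a difference of 0.05 (SE 0.0498, adjusted p = 0.42, limma). Me1, the malic enzyme that yields NADPH, was at 0.07 and 0.06 at the early times and fell by 0.50 on the log2 scale at day 3.

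**Figure D2:**
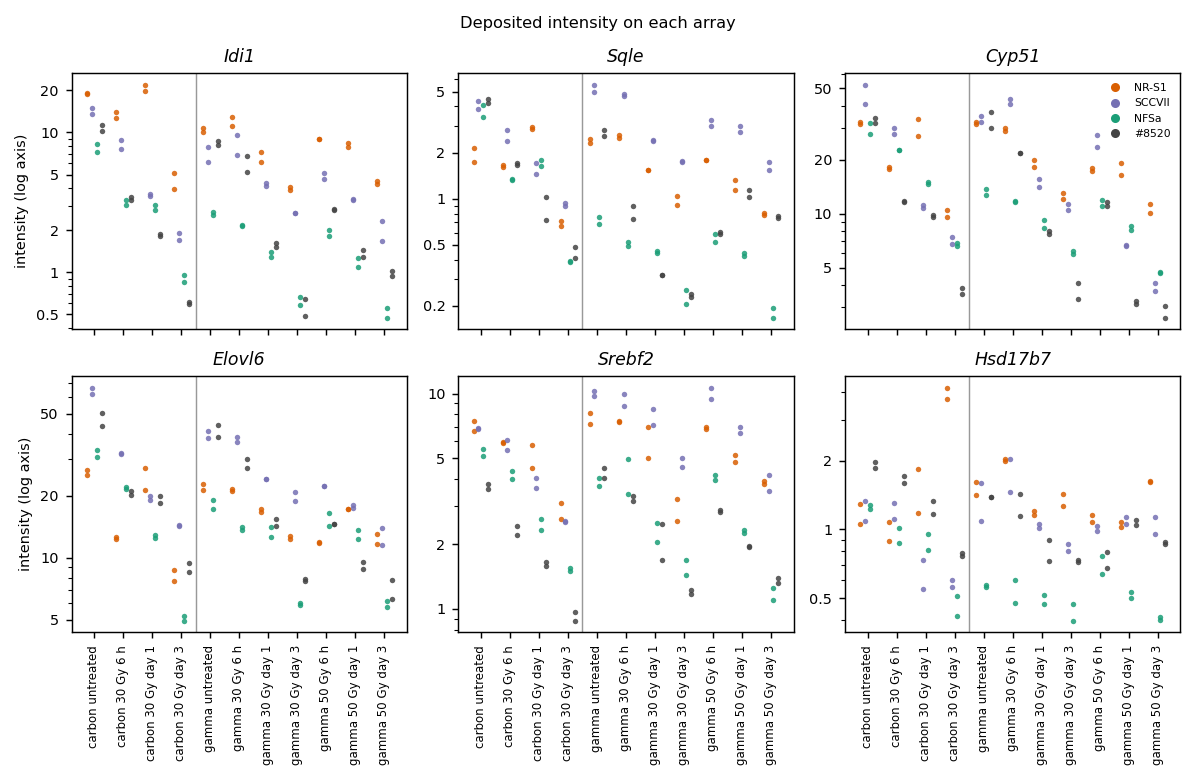
Deposited intensity (log axis) on each of the 88 arrays for 6 genes, in columns by beam, dose and time and coloured by tumour; the vertical line separates the carbon arm from the gamma arm. Points of a tumour at a time lie close together next to the distance between tumours, the NR-S1 points of Idi1 are back at the untreated level at day 1 of the carbon arm (19.97 and 21.93), and those of Hsd17b7 at day 3 of that arm (4.162 and 3.714) lie above all other points of its panel.

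Because most sterol enzymes fell together, the sequence before their start sites was searched for motifs of factors known to act on these promoters. RefSeq windows on GRCm38.p6 were matched by symbol for 27 of the 34 genes (36 windows); the 250 bases before each start were searched on both strands. The CCAAT box bound by NF-Y was held by 21 of the 27 genes (77.8%), against 37.5% of all 27025 genes with a window. The GC box GGGCGG bound by Sp1 was held by 23 (85.2%), against 35.4%. A sterol regulatory element written as TCACNCCAC was held by 1, Hmgcs1 (3.7%), against 1.22%, and the E-box CACGTG by 5 (18.5%), against 6.86%. A match is a description of the letters, and SREBP also binds variants that this pattern leaves out. The 100-base stretches below, on the strand of the gene, show strongly lowered genes from each branch and, for contrast, Dhcr7. Capitals mark matches to the sterol regulatory element, the CCAAT box (ATTGG on the other strand) or the GC box (CCGCCC on the other strand).
Hmgcs1: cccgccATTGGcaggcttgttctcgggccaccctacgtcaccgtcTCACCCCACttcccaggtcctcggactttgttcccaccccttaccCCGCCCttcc
Idi1: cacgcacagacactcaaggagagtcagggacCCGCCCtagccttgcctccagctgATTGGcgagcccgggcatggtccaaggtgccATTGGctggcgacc
Lss: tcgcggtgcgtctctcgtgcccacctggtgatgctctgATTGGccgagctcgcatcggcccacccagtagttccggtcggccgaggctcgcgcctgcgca
Cyp51: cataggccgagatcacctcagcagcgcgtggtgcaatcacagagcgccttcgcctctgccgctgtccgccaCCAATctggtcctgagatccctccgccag
Msmo1: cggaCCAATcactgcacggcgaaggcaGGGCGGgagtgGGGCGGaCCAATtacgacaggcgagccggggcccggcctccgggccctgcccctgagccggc
Elovl6: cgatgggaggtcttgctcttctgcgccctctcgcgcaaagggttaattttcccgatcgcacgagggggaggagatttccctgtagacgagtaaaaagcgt
Dhcr7: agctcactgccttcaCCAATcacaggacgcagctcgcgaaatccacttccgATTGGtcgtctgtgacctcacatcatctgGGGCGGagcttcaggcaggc

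The Hmgcs1 stretch (chr13:119690169-119690268, plus strand) covers the bases from 182 to 83 before the start and holds a match to all 3 motifs. The other stretches end at the base before the start. They are Idi1 (chr13:8885506-8885605, plus), Lss (chr10:76531505-76531604, plus), Cyp51 (chr5:4104698-4104797, minus), Msmo1 (chr8:64733579-64733678, minus), Elovl6 (chr3:129532286-129532385, plus) and Dhcr7 (chr7:143830114-143830213, plus, from 1 of its 3 windows). Dhcr7, which was not lower after carbon ions, has CCAAT and GC boxes in its stretch. That window was printed because it held the most matches, and the other Dhcr7 windows have neither box in their last 100 bases. The Elovl6 stretch has none of the 3 motifs.

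Most of the genes were lower at day 3 than at 6 h after both beams. Between 6 h and day 3 after carbon ions, 27 of 31 genes fell and 1 rose, where 41.1% of all genes were lower at day 3 than at 6 h and 21.5% higher. For 17 genes this fall was at least 1.5-fold (all genes, 4.26%). Idi1 moved by -2.01 (SE 0.0668, adjusted p = 5.3e-32, limma). Sqle moved by -1.61, Cyp51 by -1.57, Fads2 by -1.46 and Srebf2 by -1.25. In the steps between, 15 genes were lower at day 1 than at 6 h (all genes, 11.8%) and 25 were lower at day 3 than at day 1 (all genes, 45.3%). The first step was not a fall throughout. Fasn was at -0.61 at 6 h and -0.36 at day 1, and the sterol median of NR-S1 at -0.39 and -0.08. Idi1 moved by -0.39 in the first step and by -1.63 in the second. After 30 Gy of gamma rays, 23 genes had already fallen between 6 h and day 1, against 15.8% of all genes, and 27 between 6 h and day 3 (all genes, 29.6%). After 50 Gy, 25 fell between 6 h and day 3 (all genes, 44.7%), with the arrays of raised low intensities kept in. Fdft1 shows this step: it moved by -0.95 from 6 h to day 1 after gamma rays (SE 0.0648, adjusted p = 6.9e-18, limma).

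At 6 h after 30 Gy of gamma rays the sterol enzymes had hardly moved. Of the 31 genes, 13 were lower and 3 higher, where 18.4% and 19.3% of all genes were, and 0 were lower by at least 1.5-fold (all genes, 1.12%). Of the 17 sterol enzymes 5 were lower and 1 higher, with a median of -0.10, and of the 10 fatty acid genes 7 were lower and 1 higher, with a median of -0.26. Cyp51 ran from 11.6 through 25.2 to 43.7, against 12.7, 32 and 36.9 untreated, so the ranges overlapped and the change was -0.14 (SE 0.0513, adjusted p = 0.022, limma). Fdft1 was higher, by 0.21 (SE 0.0648, adjusted p = 0.0079, limma), with the same sign in 4 of 4 tumours, and turned to -0.093 against the untreated arrays of both arms. Scap rose from 20.9, 29.2 and 41.3 to 32.5, 39.5 and 63.4, by 0.57 (SE 0.0547, adjusted p = 1.3e-12, limma). Much of the lowering at this time was in #8520: there 12 of 17 sterol enzymes were lower (all genes, 24.1%), against 0 in NR-S1 and SCCVII and 1 in NFSa (all genes, 8.48%, 6.48% and 5.53%). Without #8520, 6 of the 31 genes were called lower, and Cyp51 (0.0087) and Mvd (0.056) turned positive. The share of all genes without #8520 was not counted.

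By day 1 and day 3 after gamma rays most of the genes were low. After 30 Gy, 26 genes were lower at day 1 and 27 at day 3 (all genes, 21.7% and 30.9%), with 1 higher at each time (all genes, 21.2% and 23.1%). That gene was Scap. At day 1, 15 were lower by at least 1.5-fold, against 2.22% of all genes, and at day 3 21 were, against 4.09%, and the sterol median was -1.06. Idi1 ran from 0.487 through 1.33 to 4.05 at day 3, against 2.56, 8 and 10.7 untreated. It changed by -2.19 (SE 0.0668, adjusted p = 3.1e-33, limma), and the ranges overlapped because the untreated NFSa arrays (2.718 and 2.558) were below the day 3 arrays of NR-S1 (3.868 and 4.047). Within each tumour both day 3 arrays were below both untreated arrays. Sqle changed by -2.01, Cyp51 by -1.82, Fdps by -1.61, Fads2 by -1.53, Elovl6 by -1.46 and Srebf2 by -1.41. Dhcr7 (0.02) and Scd1 (0.00) were not called.

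After 50 Gy of gamma rays 26, 28 and 28 genes were lower at 6 h, day 1 and day 3, where 26.9%, 45.1% and 44.7% of all genes were. At 6 h, 3 were higher (all genes, 22.8%): Scap, Insig2 and Me1. At day 1 and day 3, Scap was the gene called higher (all genes, 23.1% and 28.7%), by 0.18 and 0.14, values that turned to -0.079 and -0.11 against the untreated arrays of both arms. Those lower by at least 1.5-fold numbered 10, 17 and 22 (all genes, 3.69%, 8.19% and 11.4%), and the sterol median reached -1.22 at day 3. Cyp51, at 2.63, 4.37 and 11.3 against 12.7, 32 and 36.9 untreated at day 3, did not overlap and changed by -2.43 (SE 0.0513, adjusted p = 3.9e-40, limma). Its other, dimmer probe changed by -2.03. Dhcr7, which had not fallen in the other settings, was lower at day 1 (-0.43) and day 3 (-0.26), but was at 0.035 on day 3 without the 8 arrays with raised low intensities. Without those arrays, and so with NR-S1 and NFSa alone, 17 genes were lower at day 1, and Insig2 (0.22), Fasn (0.15) and Acaca (0.052) turned positive there.

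The tumours differed in the size of the response and, for some genes, in its direction. An F test over the 4 tumours' changes (limma) called 21, 23 and 27 of the 31 genes at 6 h, day 1 and day 3 after carbon ions, where it called 45%, 58.3% and 61.9% of all genes. After 30 Gy of gamma rays it called 18, 22 and 26 (all genes, 36.9%, 52.5% and 56%), and after 50 Gy 25, 28 and 28 (all genes, 59.6%, 76.5% and 77%). Without #8520 the counts fell to 6, 7 and 13 after 30 Gy of gamma rays and to 9 at 6 h after 50 Gy. All genes were not counted in that smaller test, so no share stands beside these counts. The day 1 and day 3 counts after 50 Gy include the arrays with raised low intensities, which are those of SCCVII and #8520. At day 3 after carbon ions the median of the sterol enzymes was -1.18 in NR-S1, -1.52 in SCCVII, -1.43 in NFSa and -2.17 in #8520. Idi1 changed there by -2.09, -2.99, -3.11 and -4.16 in the same order (F test, adjusted p = 2.6e-12, limma). Fads2 separated the carcinomas (-1.01 and -1.55) from the fibrosarcomas (-2.84 and -2.96; F test, adjusted p = 8e-17, limma), and Fasn did so too (-0.60 and -0.78 against -1.79 and -1.91). That grouping was read from the values and was not itself tested.

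**Figure D3:**
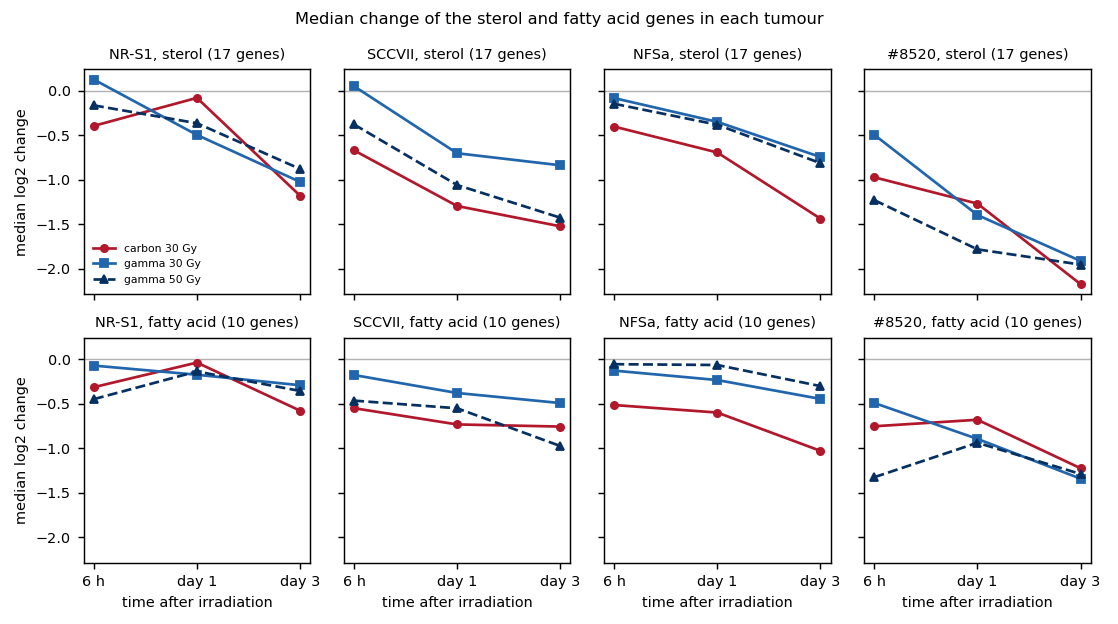
Median log2 change of the 17 sterol enzymes (top row) and 10 fatty acid genes (bottom row) in each of the 4 tumours against time, with 1 line for each beam and dose. The sterol line of NR-S1 after carbon ions is the one that returns towards 0 at day 1 (-0.08) before reaching -1.18 at day 3, and #8520 has the lowest sterol medians at day 3.

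NR-S1 stood apart at day 1 after carbon ions. There 3 of its 17 sterol enzymes were higher and 5 lower, and 2 of its 10 fatty acid genes were higher and 0 lower, where 18.7% of all genes were higher and 16.4% lower. In SCCVII, NFSa and #8520 the sterol enzymes lower at that time numbered 15, 14 and 15 (all genes, 11.1%, 6.99% and 18.5%). In NR-S1 Idi1 read 19.32 and 19.01 untreated, 12.71 and 13.98 at 6 h, 19.97 and 21.93 at day 1 and 3.951 and 5.149 at day 3. It had thus fallen, come back and then fallen further. Sqle in NR-S1 read 2.155 and 1.725 untreated, 1.612 and 1.656 at 6 h, 2.863 and 2.94 at day 1 and 0.6639 and 0.716 at day 3. Both day 1 arrays were above both untreated arrays, by 0.59 (adjusted p = 4.9e-05, limma), while in #8520 the change was -2.33 (F test, adjusted p = 3.7e-20, limma). Acly, which cleaves citrate to acetyl-CoA, was at 4.246 and 3.853 untreated, 4.897 and 4.524 at 6 h, 7.726 and 7.877 at day 1 (0.95, adjusted p = 6.5e-09, limma) and 3.417 and 2.786 at day 3. It did not fall at 6 h, and its day 1 arrays were the highest.

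Fasn in NR-S1 was at 25.32 and 26.07 untreated and 32.53 and 40.22 at day 1 (0.49), and Srebf1 at 0.4379 and 0.451 untreated and 0.6503 and 0.9233 at day 1 (0.80). Msmo1 (0.36) and Nsdhl (0.35) were higher too. Not all members came back: Fdps (-0.45), Fdft1 (-0.41), Lss (-0.33), Mvd (-0.44), Pmvk (-0.32) and Srebf2 (-0.48) were lower at day 1 in the same arrays. The summed intensity of 12 proliferation genes in NR-S1 was 654 to 670 untreated, 366 to 422 at 6 h, 637 to 644 at day 1 and 306 to 314 at day 3. Missing values, mainly of Mki67, counted as 0, so such sums are not strictly comparable between arrays or tumours. The sum had the same course in the other tumours, with medians of 779, 534, 747 and 500 in SCCVII, 516, 337, 489 and 195 in #8520 and 505, 381, 450 and 198 in NFSa. Its part in the result was not tested. Without NR-S1, the F test at day 1 called 14 genes in place of 23, and its share of all genes was not counted.

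**Figure D4:**
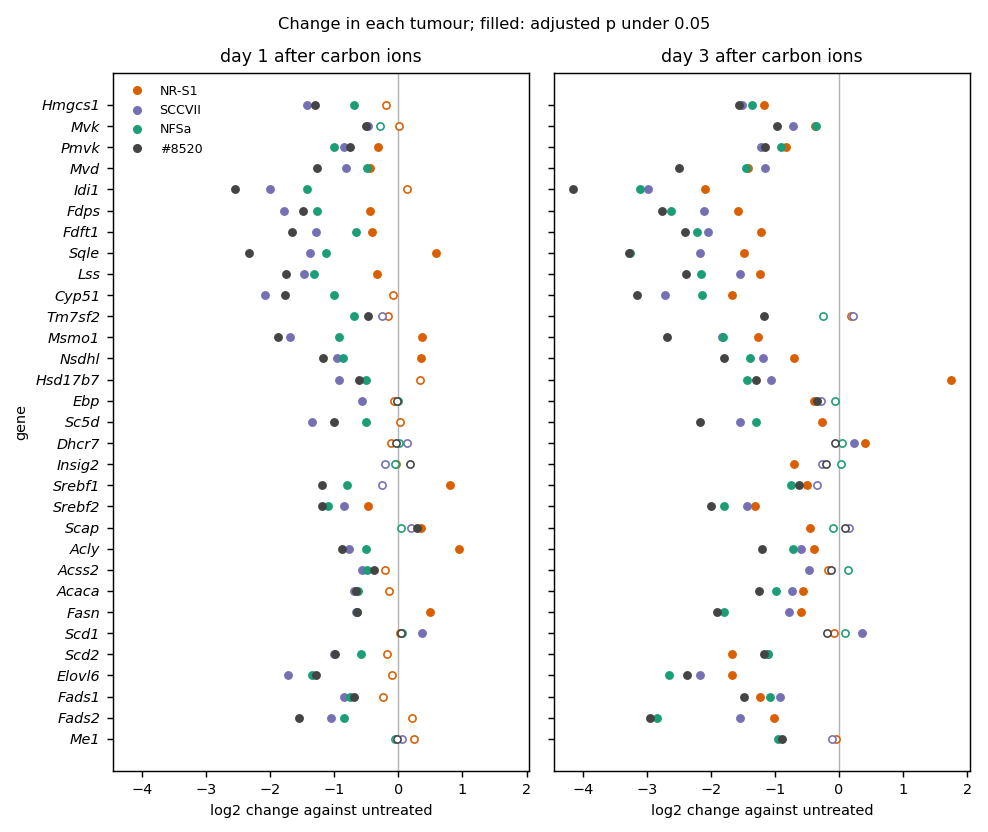
Log2 change of each of the 31 genes in each tumour at day 1 (left) and day 3 (right) after carbon ions; filled points have an adjusted p below 0.05. At day 1 the NR-S1 points run from -0.48 (Srebf2) to 0.95 (Acly), while those of the other tumours spread down to -2.55 (Idi1 in #8520). At day 3 the NR-S1 point of Hsd17b7, at 1.75, is alone on the right.

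Hsd17b7, a ketoreductase that acts in removing methyl groups from lanosterol, opposed the rest of the route in carbon-irradiated NR-S1 at day 3. It read 4.162 and 3.714 there against 1.056 and 1.294 untreated, a change of 1.75 (adjusted p = 6.9e-14, limma). In SCCVII it went from 1.088 and 1.333 to 0.558 and 0.5975, in NFSa from 1.281 and 1.227 to 0.5132 and 0.4195, and in #8520 from 1.848 and 1.974 to 0.7891 and 0.7675. The arrays of the 3 other tumours all fell, so the tumours went in opposite directions (F test, adjusted p = 1.2e-18, limma). After gamma rays at day 3 Hsd17b7 in NR-S1 was at -0.17 (30 Gy, adjusted p = 0.44) and 0.10 (50 Gy, adjusted p = 0.66, limma). Tm7sf2, which also differed in sign, was at 0.19 in NR-S1, 0.21 in SCCVII, -0.26 in NFSa and -1.17 in #8520 at day 3 after carbon ions. Without #8520 its mean was 0.048. In the untreated tumours the F test called 30 of the 31 genes (all genes, 91.3%).

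At an equal 30 Gy and against each beam's own untreated tumours, the mean over the 4 tumours was lower after carbon ions than after gamma rays for most sterol enzymes at 6 h, and the tumours were split at the later times. At 6 h, 18 genes were lower after carbon ions and 0 higher, where 6.62% of all genes were lower and 9.28% higher. The 18 included 13 of the 17 sterol enzymes, whose median difference was -0.48. Fdft1 differed by -1.04 (SE 0.0916, adjusted p = 4.6e-13), Idi1 by -0.98 (SE 0.0945, adjusted p = 6.2e-12), Cyp51 by -0.71 (adjusted p = 4.2e-11) and Elovl6 by -0.69 (adjusted p = 1.3e-11, limma). At day 3, 16 were lower and 1 higher (all genes, 20.2% and 15.8%), with Idi1 at -0.89, Fads2 at -0.56 and Lss at -0.52. At day 1, 9 were lower and 3 higher (all genes, 8.03% and 17.1%). Taken singly, the tumours had 10 (NR-S1), 11 (SCCVII), 8 (#8520) and 7 (NFSa) sterol enzymes lower after carbon ions at 6 h (all genes, 7.63%, 3.71%, 8.65% and 4.61%). At day 1, 6 were higher and 0 lower in NR-S1 and 7 higher and 0 lower in #8520 (all genes higher, 12.3% and 27.3%), whereas 7 were lower in SCCVII and 6 in NFSa, with 0 higher (all genes lower, 7.68% and 10.6%). At day 3, 9 were lower and 1 higher in SCCVII (all genes, 8.36% and 10%) and 12 were lower in NFSa (12.5%). In NR-S1 2 were lower and 3 higher (21.2% and 16.9%), and in #8520 0 were lower (2.51%). Differences of at least 1.5-fold downwards were found for 6, 0 and 5 genes at the 3 times (all genes, 0.553%, 0.284% and 0.844%). The day 1 count fell to 1 without SCCVII, to 1 without NFSa and to 5 without the #8520 carbon-arm untreated array 2. Fads1 at day 1 (-0.25) turned to 0.12 after quantile normalization.

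The untreated tumours of the arms were themselves unlike, and the difference between beams depended on them. Untreated gamma-arm tumours had 20 genes lower and 4 higher than untreated carbon-arm tumours, where 33.7% and 26.6% of all genes were, and 6 were lower by at least 1.5-fold (all genes, 2.69%). Idi1 was at 7.28, 12.4 and 19.3 (lowest, median, highest) in the carbon arm and at 2.56, 8 and 10.7 in the gamma arm, lower by -0.96 (SE 0.0668, adjusted p = 1.8e-17, limma). Fdps (-0.67), Lss (-0.65), Msmo1 (-0.61), Fads1 (-0.56, but 0.15 after quantile normalization) and Scap (-0.51) were lower as well, and Ebp (0.42), Dhcr7 (0.42), Mvk (0.35) and Tm7sf2 (0.23) higher. NFSa had the widest gap: its Sqle intensities were 3.421 and 4.099 in the carbon arm and 0.7596 and 0.6862 in the gamma arm. Without NFSa, 13 genes were lower in the gamma arm.

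Markers of other cells also differed between the untreated arms. Averaged over the tumours, all 10 skeletal muscle genes were lower in the gamma arm. Their summed intensity was 434 to 440 in the carbon arm and 29.2 to 31.6 in the gamma arm in SCCVII, but 375 to 387 and 530 to 578 in NFSa. Of 9 tested T and NK cell genes 7 were higher in the gamma arm, and in NFSa their summed intensity was 14.1 to 15.2 in the carbon arm and 117 to 123 in the gamma arm. The part of these markers in the result was not tested, and the beam cannot be told apart from whatever else differed between the arms.

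The irradiated tumours of the beams were also compared directly, without the untreated arrays. At 6 h carbon-irradiated tumours had 14 of the 31 genes lower and 7 higher than gamma-irradiated ones (all genes, 24.5% and 30.9%). The sterol median was -0.22, and Fdft1 (-0.43) and Cyp51 (-0.30) were lower while Idi1 was at -0.03 (adjusted p = 0.74, limma). At day 1 the order turned: 17 were higher and 5 lower (all genes, 39.4% and 25.2%), with Sqle at 0.93, Msmo1 at 0.80 and Idi1 at 0.69. At day 3, 12 were lower and 8 higher (all genes, 33.4% and 31.9%). The sterol median was then 0.01, and Idi1 (0.065, adjusted p = 0.40) and Fdft1 (0.01, adjusted p = 0.86, limma) did not pass the threshold. Fads2 (-0.57 at day 3) was lower after carbon ions under either comparison.

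**Figure D5:**
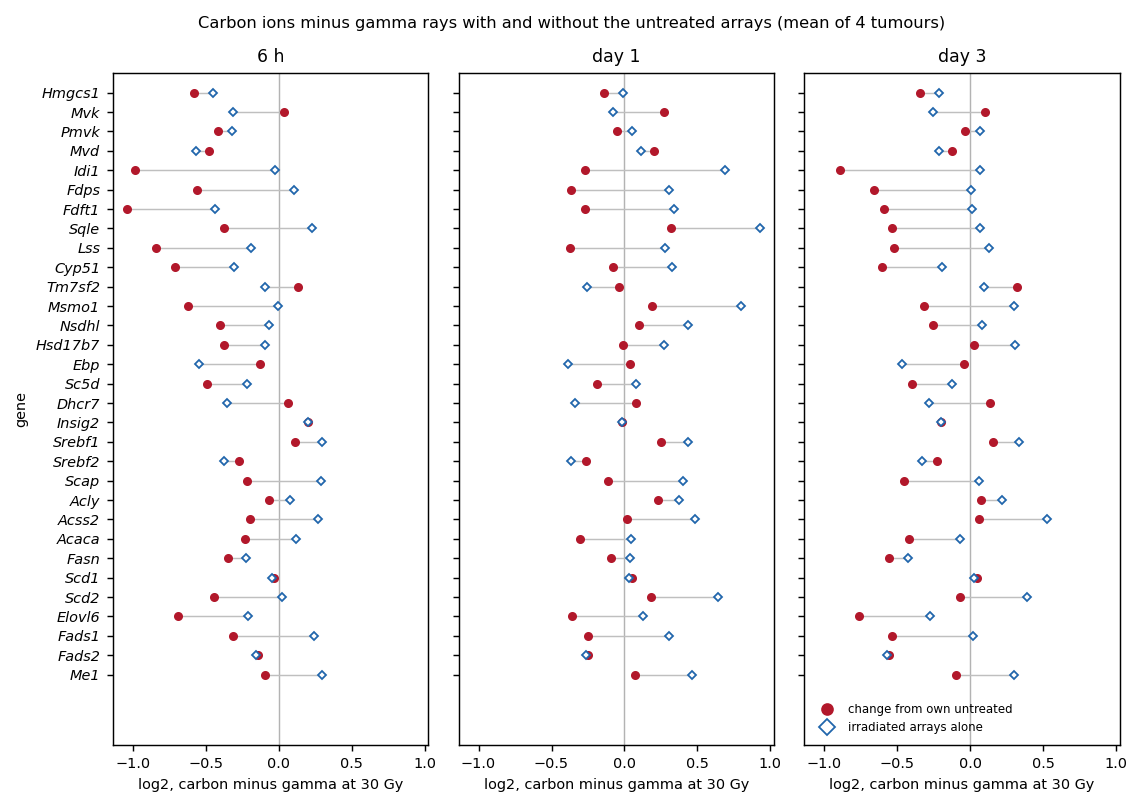
Carbon ions minus gamma rays at 30 Gy on the log2 scale (mean of 4 tumours) for the 31 genes at 6 h, day 1 and day 3; circles give the difference between changes from each arm's own untreated tumours and diamonds the difference between irradiated arrays alone. The distance between circle and diamond is the difference between the untreated arms, widest for Idi1, whose day 3 circle is at -0.89 and diamond at 0.065.

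The step from 30 to 50 Gy of gamma rays lowered most of the genes at 6 h. There 25 of the 31 were lower and 1 higher at 50 Gy, where 16.2% and 10.9% of all genes were. Untreated tumours do not enter this comparison. Lss, at 1.19, 2.88 and 3.57 after 30 Gy, was at 1.07, 1.69 and 2.54 after 50 Gy, a difference of -0.62 (SE 0.0555, adjusted p = 2.3e-13, limma), with ranges that overlapped across tumours. Cyp51 differed by -0.61 (adjusted p = 2.6e-14), Idi1 by -0.60 (adjusted p = 1.7e-10) and Scd2 by -0.49 (adjusted p = 3.9e-09, limma). Insig2 was higher, by 0.22 (adjusted p = 0.0036, limma). Without #8520, 15 genes were lower at 50 Gy. Those lower by at least 1.5-fold were 4 at 6 h, 2 at day 1 and 1 at day 3 (all genes, 0.662%, 5.45% and 4.77%).

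At the later times the dose comparison changed when the arrays with raised low intensities, which are all those of SCCVII and #8520 at 50 Gy, were left out. At day 1, 15 genes were lower and 5 higher at 50 Gy, and at day 3 14 and 5 (all genes, 43.1% and 19.6%, and 35.5% and 23.9%). Without those arrays, when NR-S1 and NFSa alone remain, 0 and 2 genes were lower, and without SCCVII 8 and 6. After quantile normalization 7 were lower and 11 higher at day 1, and 10 lower and 11 higher at day 3. In #8520, Sqle read 0.316 and 0.3176 at day 1 after 30 Gy and 1.033 and 1.132 after 50 Gy, and Srebf1 0.2828 and 0.3668 against 1.005 and 1.15. Both genes lay near the low end of the scale, where those arrays were raised. Cyp51, which was well above that end, differed by -0.66 at day 1, but by -1.16 in SCCVII and -1.30 in #8520 against -0.10 in NR-S1 and -0.09 in NFSa. The doses lay closer on its other, dimmer probe. Against untreated tumours that probe changed by -1.14 at day 1 after 30 Gy and by -1.39 after 50 Gy. The probe used changed by -1.15 and -1.81.

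Genes next to the pathway, from lists of their own, did not all go the same way. At day 3 after carbon ions, 6 of 12 other sterol and SREBP-related genes were lower and 2 higher, shares near those of all genes (41.8% lower, 26.4% higher). Among the 6 were Aacs, which activates acetoacetate (-0.89, SE 0.0528, adjusted p = 5.1e-21, limma), and Sp1 (-0.60). Of 13 genes of sterol efflux, uptake and LXR response, 11 were higher and 1 lower, with a median of 1.00 against -0.08 for all genes. They included the efflux transporter Abcg1 (2.39, SE 0.0527, adjusted p = 4.4e-40), the LXR gene Nr1h3 (2.07, adjusted p = 1.2e-35) and the lipid transfer protein Pltp (1.73, adjusted p = 3.5e-36, limma). Scarb1, a lipoprotein receptor, was lower (-0.67). Of 15 genes of fatty acid activation and glyceride synthesis with a value in this comparison (Gpam had none) 5 were higher and 5 lower, again near the shares of all genes, with Acsl3 at -1.34 and Acacb at 0.72. Of 12 oxidation genes 3 were higher and 2 lower, with Cpt1a at 0.88.

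Markers of cell division and of immune cells differed from the untreated tumours at day 3, as the sterol and fatty acid genes did, but less so at day 1. All 11 tested proliferation genes were lower at day 3 after carbon ions (median -1.23), with a summed intensity of 489 to 806 untreated and 179 to 513 at day 3. At 6 h 10 of 11 were lower, and at day 1 6 were lower and 1 higher, with summed intensities of 326 to 551 and 440 to 749. The day 1 sums overlapped the untreated ones, yet the 6 of 11 called lower stood against 16.6% of all genes. Of the 31 sterol and fatty acid genes, 26 were lower at day 1. In these sums missing values, mainly of Mki67, counted as 0, so they are not strictly comparable. Macrophage markers were higher in 9 of 11 at day 3, from 159 to 791 untreated to 697 to 1260 in sum, with medians of 558 untreated and 572 at day 1. T and NK cell markers were higher in 9 of 9, from 9.78 to 52 up to 88.5 to 145, with medians of 27.3 untreated and 21.3 at day 1. Of 11 fat cell markers 4 were bright enough to test, and at day 3 2 were higher and 0 lower. The part of these lists in the fall of the sterol and fatty acid genes was not tested.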

How the data were processed

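Whole tumours were measured on 88 single-colour arrays labelled with Cy5, per the labels' protocols. The authors deposited intensity values on a linear scale, scaled to a median near 1 on each array, with some values below 0; no source used here names the scanner, the background method or the rule for scaling. Of 36227 probes, 21615 carried 1 gene symbol, 681 several and 13931 none. Symbols were updated by Entrez number, and each gene was represented by its probe with the highest mean log2 value.

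Values not above 0 (0.149%) were treated as missing, beside 0.751% missing as deposited. Genes in the lowest 25% of mean log2 intensity, or measured on under 80% of arrays, were not tested. The remaining 13465 genes were fitted with limma 3.58.1 (R 4.3.3) as 44 group means. Contrasts averaged the 4 tumours equally, p-values were two-sided and Benjamini-Hochberg adjusted over all genes, and 0.05 was the threshold. The number of arrays, 2 in each group, limits the precision.

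In simulated data, where far fewer genes changed than were called here, the carbon 6 h contrast recovered 94% of genes changed by 1.5-fold, with 5 false calls of 196. The F test at day 3 after carbon ions recovered 44.8% of genes changed by 1.5-fold in a single tumour, with 3 false calls of 96. All 34 genes are named. Full values are given, for each role and setting, for the gene with the largest called change of the same sign in all tumours, and for genes called in opposite directions in different settings. The genes, lists and tests were chosen with earlier results of these data known. Alternatives were other normalizations, filters, probes, priors and references, a replicate block, a fold minimum, and leaving out arrays or tumours. When arrays or tumours were left out, only genes of the set were counted, so no share of all genes is given.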

Additional observations from a re-analysis of the deposited data

Results flagged for a closer look

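The response of many of the genes differed between tumours by limma's F test over all 4. After carbon ions it called 21, 23 and 27 of 31 genes at 6 h, day 1 and day 3 (all genes, 45%, 58.3% and 61.9%). After 30 Gy of gamma rays it called 18, 22 and 26 (all genes, 36.9%, 52.5% and 56%). After 50 Gy it called 25, 28 and 28 (all genes, 59.6%, 76.5% and 77%). Lower at day 3 than at 6 h were 27 genes after carbon ions, 27 after 30 Gy and 25 after 50 Gy of gamma rays (all genes, 41.1%, 29.6% and 44.7%). The day 1 and day 3 counts after 50 Gy include the arrays with raised low intensities.

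In several cases the tumours were called in opposite directions and the F test passed. At day 1 after carbon ions NR-S1 was higher for Sqle (0.59), Msmo1 (0.36), Nsdhl (0.35), Srebf1 (0.80), Acly (0.95) and Fasn (0.49), where the mean of the 4 tumours was lower. At day 3 NR-S1 was higher for Hsd17b7 (1.75). At 6 h after 30 Gy of gamma rays NR-S1 was higher for Mvd (0.43) and Nsdhl (0.32), and SCCVII for Cyp51 (0.33) and Msmo1 (0.41). SCCVII was higher for Me1 (0.28) at day 3 after 30 Gy. After 50 Gy NR-S1 was higher for Scap at day 1 (0.65) and day 3 (0.55) and for Dhcr7 at day 3 (0.23), and #8520 for Acss2 at day 3 (0.32), the last on arrays with raised low intensities.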

How the results depend on the processing

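Counts of lower or differing genes stayed within 1.5 times of those given after median centring, a small offset on the linear scale, testing all genes however dim, a stricter filter, the mean of all probes, and a trended robust prior. Required to be at least 1.5-fold, lower genes numbered 15 and 17 at 6 h and day 1 after carbon ions, 0 and 15 after 30 Gy and 10 and 17 after 50 Gy of gamma rays. They numbered 6, 0 and 5 for carbon minus gamma at the 3 times, 4, 2 and 1 for 50 minus 30 Gy, 17 for carbon day 3 minus 6 h, and 6 between untreated arms. Quantile normalization gave 7 lower for 50 minus 30 Gy at day 1. Without the 8 raised arrays, which leaves NR-S1 and NFSa, 17 were lower at day 1 after 50 Gy, and 0 and 2 for 50 minus 30 Gy at day 1 and day 3. Carbon minus gamma at day 1 had 5 lower with the untreated arrays of both arms, and 1 without SCCVII or without NFSa. Without NR-S1, 14 genes differed between tumours at day 1 after carbon ions. Without SCCVII, 50 minus 30 Gy had 8 and 6 lower at day 1 and day 3. Without #8520, 6 were lower at 6 h after 30 Gy and 15 for 50 minus 30 Gy at 6 h, and 6, 7, 13 (30 Gy) and 9 (50 Gy, 6 h) differed between tumours. Without NFSa, 13 were lower in the untreated gamma arm.

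Leaving out 1 array at a time, lower genes ranged from 23 to 25, 24 to 26 and 27 to 28 at the 3 times after carbon ions, 12 to 15, 24 to 26 and 26 to 27 after 30 Gy, and 24 to 26, 26 to 29 and 27 to 28 after 50 Gy. The range was 17 to 19, 5 to 9 and 15 to 18 for carbon minus gamma, with 5 at day 1 without the #8520 carbon untreated array 2. It was 23 to 25, 13 to 17 and 13 to 15 for 50 minus 30 Gy, 25 to 27 for carbon day 3 minus 6 h, and 16 to 21 between untreated arms. Genes differing between tumours ranged from 18 to 22, 21 to 26 and 24 to 27 after carbon ions, 16 to 19, 21 to 23 and 25 to 27 after 30 Gy, 21 to 26, 26 to 28 and 27 to 29 after 50 Gy, and 29 to 31 untreated.

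What arrays with the same number share, beyond that number, was not settled. Of 28 pairs of groups, 7 had deviations correlated above 0.1 (from -0.193 to 0.39). For 48 of 72 arrays the strongest correlation was with arrays of their own number. With the replicate block, 25 genes were lower at 6 h after carbon ions, and no count moved beyond 1.5 times.

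Of 5222 values of single genes under an alternative, 4898 kept direction and call, 251 lost the call, 38 gained it and 35 changed sign. Against the untreated arrays of both arms these were Dhcr7 (-0.17 and -0.054) and Acss2 (0.061 and 0.075) at 6 h and day 3 after carbon ions, and Scap (0.18) at day 3. At 6 h after 30 Gy they were Fdft1 (-0.093), Ebp (0.15), Dhcr7 (0.18), Acss2 (-0.21) and Me1 (-0.025), and at day 1 Ebp (0.0086) and Dhcr7 (0.13). After 50 Gy they were Dhcr7 at 6 h (0.12) and Scap at day 1 (-0.079) and day 3 (-0.11). For carbon minus gamma they were Scap at 6 h (0.29), Fads1 at day 1 (0.30), and Idi1 (0.065), Lss (0.13) and Scap (0.058) at day 3. Quantile normalization turned Me1 at day 1 (0.093) and Acss2 (0.14) and Scd1 (0.19) at day 3 after 50 Gy, Fads1 for carbon minus gamma at day 1 (0.12) and Fads1 between untreated arms (0.15). The mean of all probes turned Fasn for 50 minus 30 Gy at day 3 (0.091). Without the raised arrays Insig2 (0.22), Acaca (0.052) and Fasn (0.15) at day 1 and Dhcr7 (0.035) and Insig2 (0.028) at day 3 after 50 Gy turned. Without #8520 Tm7sf2 at day 3 after carbon ions (0.048), Mvd (0.056) and Cyp51 (0.0087) at 6 h and Fasn (0.041) at day 1 after 30 Gy turned. The cause was not tested. Signal near the low end limits Insig1, Srebf1 and Sqle, and also Hsd17b7 and Fads2, whose lowest intensities were 0.399 and 0.351.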
